A study of Saccharomyces cerevisiae with 18 samples.

Results

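The mRNAs described here encode subunits of RNA polymerase II, the enzyme that transcribes the protein-coding genes of the nucleus. The 10 genes were taken by locus name from the 7127 features counted in every library: RPO21 (YDL140C), RPB2 (YOR151C), RPB3 (YIL021W), RPB4 (YJL140W), RPB7 (YDR404C), RPB9 (YGL070C) and RPB11 (YOL005C), together with RPB5 (YBR154C), RPO26 (YPR187W) and RPB8 (YOR224C), whose products are also subunits of RNA polymerases I and III. The rule for the choice used no measured value, but it was set with earlier results of these data known. All 10 passed the filter on low counts that left 6429 genes for testing. The remaining shared subunits RPB10 and RPC10 were not among the 10 and are given with the related genes.

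RNA polymerase II is built around a catalytic core of its largest subunits, Rpo21 and Rpb2, which form the cleft and the active site. Rpb3 and Rpb11 form the assembly platform on which the core is put together, Rpb4 and Rpb7 form a stalk that can come off the core, and Rpb9 is a small peripheral subunit with a part in start site choice and fidelity. Rpo21 carries a C-terminal tail of repeated heptapeptides whose phosphorylation recruits mRNA processing and export factors. The enzyme is assembled in the cytoplasm and imported, so each subunit mRNA has to leave through nuclear pore complexes (NPCs), whose nuclear face can carry a filamentous structure called the basket.

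All cells were Saccharomyces cerevisiae of strain W303, harvested from unsynchronised YPD cultures in logarithmic growth and ground under liquid nitrogen, and the RNA of every group was selected for poly(A). Basket-containing pores and their background control, named PrA, were purified on IgG. Basket-less pores, all NPCs and a GFP control were purified on a GFP nanobody, and input was RNA taken straight from the extract. Each of the 6 groups had 3 libraries. The tagged baits and any further alleles are not stated in any source used here, nor is it given whether replicates came from separate cultures. Since IgG was used for basket-containing pores and the nanobody for basket-less pores, the kind of pore and the matrix cannot be told apart, except through each matrix's own control.

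The genes differ widely in size, and a pair of them have sequence features that set them apart. RPO21, with a coding length of 5202 bases (chromosome IV, 205360 to 210561, minus strand, R64 build), and RPB2, with 3675 bases (XV, 612997 to 616671, minus strand), are both far above the median coding length of 1209 bases among genes tested with a length. The other 8 range from 957 bases for RPB3 (IX, 312905 to 313861, plus strand) down to 363 bases for RPB11 (XV, 315813 to 316175, minus strand). RPO21 was the only gene tested whose reading frame holds at least 5 exact copies of the heptapeptide repeat. It holds 19, of which 14 stand in 1 unbroken run. A stretch of 7 units from that run is shown because the repeat tail identifies the largest subunit. It lies at chrIV:205750-205896 on the minus strand (RefSeq, R64), is read 5′ to 3′ along the mRNA, and alternates between capitals and lower case to mark the successive units of 21 bases.

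RPO21 C-terminal repeat units: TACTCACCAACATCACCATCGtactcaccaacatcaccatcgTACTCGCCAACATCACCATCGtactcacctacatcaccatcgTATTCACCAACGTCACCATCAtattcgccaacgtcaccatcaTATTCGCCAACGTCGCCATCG

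These 7 units include 6 distinct DNA sequences, so the repeats are not identical at the level of bases. RPO26 was the only gene of the 10 with an intron in its coding sequence. The intron is 76 bases long and lies at chrXVI:911277-911352 on the plus strand (RefSeq, R64), directly after a first exon of 20 bases. It is shown because it marks the only spliced mRNA of the group. Capitals mark the 5′ splice site GTATGT, the branch point motif TACTAAC and the final CAG.

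RPO26 first exon: atgtcagactacgaggaggc
RPO26 intron: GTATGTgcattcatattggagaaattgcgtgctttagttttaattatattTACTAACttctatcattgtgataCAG

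Of the 277 genes tested with exactly 2 coding exons, 74.4% held TACTAAC in the intron and 66.1% had an intron starting with GTATGT, both read on the strand of the gene, so both motifs of RPO26 are of the common kind. No annotated gene overlaps any of the 10. Features absent from the annotation used here carry names next to RPB3 (YIL021C-A and YIL020C-A), RPB9 (YGL069C) and RPB8 (YOR225W). Whether counting used strand is not given, so reads of these features and of RPB3, RPB9 and RPB8 may not be separable.

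Library totals ran from 10592840 to 16620246 counts. Pairs of replicates differed by 1.58 to 9.54 times the counting error (chi-square per degree of freedom), apart from replicate 3 of the PrA control, which stood at 18.7 and 20.4 against its partners. Values over the PrA control without that library are given beside the counts. Levels below are CPM (counts set relative to library size, with TMM factors), changes are log2 fold changes ± SE from edgeR's quasi-likelihood test with 3 libraries a group, and a gene is called at a Benjamini-Hochberg adjusted p below 0.05 over all 6429 genes. Markers of a cells were present in every group (BAR1 at mean levels of 99.5 to 138 CPM), whereas the alpha-cell pheromone gene MF(ALPHA)1 was at 0.223 to 0.953 CPM (both before TMM scaling).

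The mRNAs of the catalytic subunits were higher in the pore purifications than in their controls, most of all in basket-containing pores, while those of the smaller subunits were lower there. The 10 mRNAs made up 0.170% ± 0.001 (SD, n = 3) of all counts in input and 0.259% ± 0.006 in basket-containing pores. Within that sum, RPO21 and RPB2 together held 44.6% ± 1.5 of the counts in input, 42.4% ± 1.2 in the GFP control and 46.7% ± 1.9 in the PrA control. They held 67.5% ± 0.9 in basket-less pores, 73.7% ± 0.2 in all NPCs and 89.6% ± 0.4 in basket-containing pores. As these are bulk libraries with no external standard, each level is a share of its library, and fewer cells holding an mRNA cannot be told apart from less mRNA per cell.

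**Figure D1:**
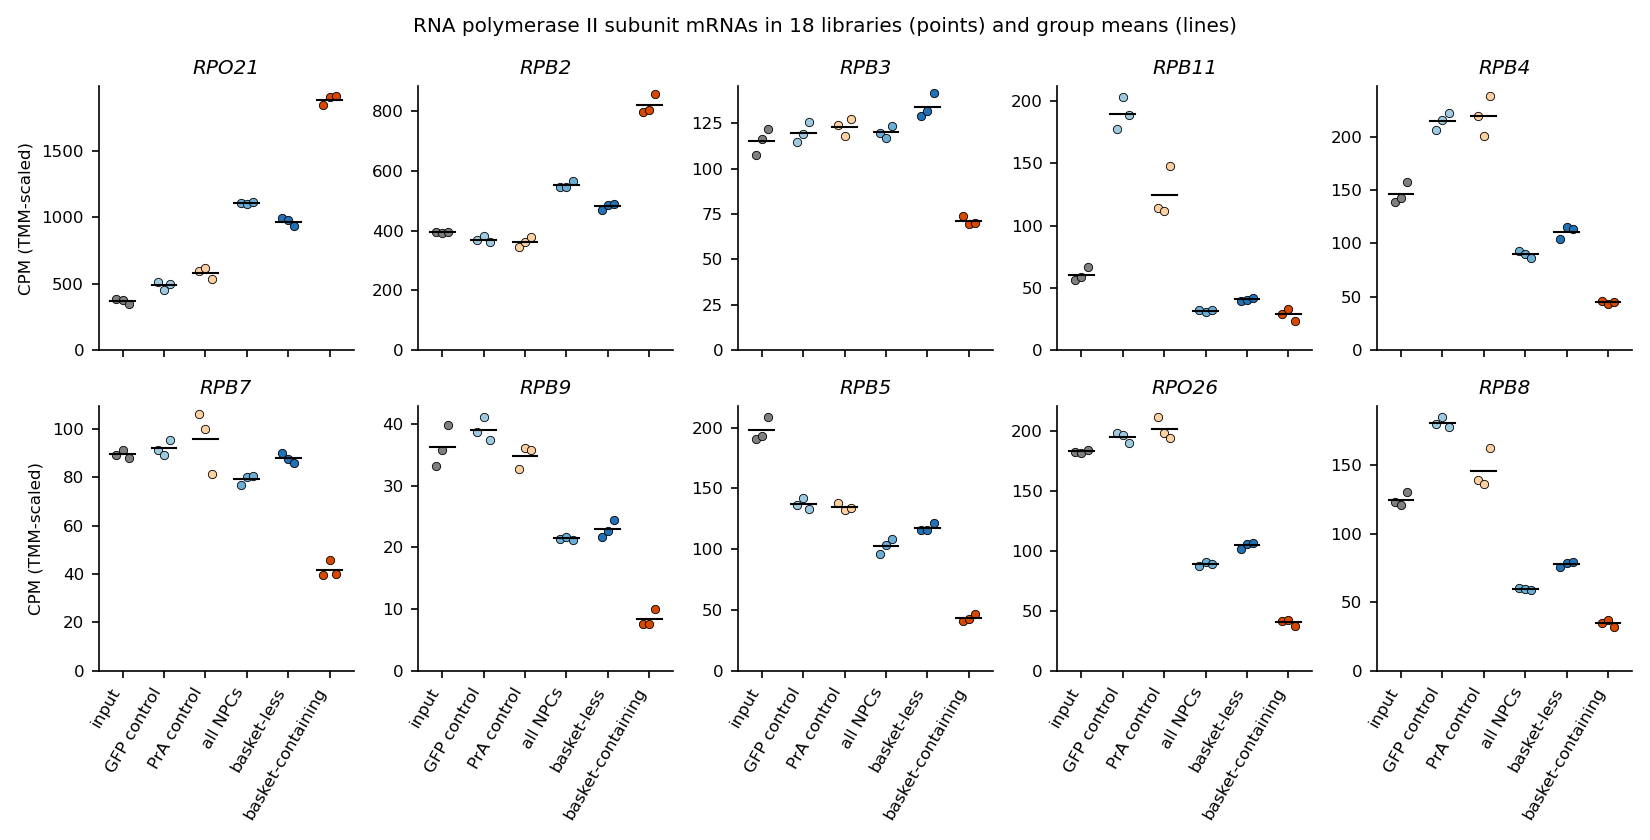
Levels of the 10 subunit mRNAs in the 18 libraries, in TMM-scaled CPM on linear axes that start at 0, with 1 point per library and a line at each group mean. RPO21 and RPB2 are highest in the 3 basket-containing libraries, and each of the other 8 has its lowest group mean there.

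RPO21, the largest subunit and carrier of the repeat tail shown above, had the widest rise. In input it stood at 384, 380 and 352 CPM, in the GFP control at 515, 455 and 501 CPM and in the PrA control at 598, 619 and 533 CPM. In basket-less pores it stood at 994, 979 and 933 CPM, in all NPCs at 1110, 1104 and 1119 CPM and in basket-containing pores at 1844, 1904 and 1911 CPM. The 6 groups did not overlap at any step of this order. Groups free of overlap were common among all genes tested, at 89.5% for basket-containing pores and the PrA control, 83.9% for basket-less pores and 86.5% for all NPCs with the GFP control, and 34.4% between the controls. Set with input, the shares were 89.7%, 82.9% and 84.7% for these pore groups, 76.7% for the PrA control and 80.1% for the GFP control. They were 83.3% between all NPCs and basket-containing pores and 59.6% between all NPCs and basket-less pores. RPO21 was 3.23-fold higher in basket-containing pores than in the PrA control (log2 1.69 ± 0.05, adjusted p = 8.84e-21) and 1.98-fold higher in basket-less pores than in their GFP control (0.98 ± 0.05, adjusted p = 2.51e-15). Without replicate 3 of the PrA control the former change was 1.63.

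RPB2, which with Rpo21 forms the active centre, rose in the same comparisons by less. Its levels were 394, 392 and 395 CPM in input, 368, 381 and 361 CPM in the GFP control and 345, 362 and 378 CPM in the PrA control. They were 467, 486 and 488 CPM in basket-less pores, 545, 547 and 565 CPM in all NPCs and 796, 803 and 857 CPM in basket-containing pores. All 9 pore libraries were above all 9 others, and only the pair of controls overlapped as neighbours in the order. The change was 2.26-fold in basket-containing pores over the PrA control (log2 1.18 ± 0.04, adjusted p = 1.07e-19). For basket-less pores over their GFP control it was 0.38 ± 0.04 (adjusted p = 3.51e-09), and 0.11 with upper-quartile scaling.

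The assembly platform mRNAs RPB3 and RPB11 did not move as a pair. RPB3 was at 73.8, 69.6 and 70.2 CPM in basket-containing pores and at 129, 132 and 142 CPM in basket-less pores, with the 12 libraries of the other groups between 108 and 127 CPM. Only basket-containing pores stood clearly below the rest (1.73-fold lower than the PrA control, log2 -0.79 ± 0.05, adjusted p = 5.77e-13). Over the GFP control, RPB3 in basket-less pores was at 0.16 ± 0.05 (adjusted p = 0.0059). The call was lost with DESeq2 size factors (0.04, adjusted p = 0.431) and, with the sign turned, with upper-quartile factors (-0.11, adjusted p = 0.0616). No filter (0.06, adjusted p = 0.319), only the groups compared (0.03, adjusted p = 0.546) and the DESeq2 Wald test (0.04, adjusted p = 0.47) lost the call as well. The call was lost too without replicate 3 of basket-containing pores (0.06, adjusted p = 0.321), which enters only through the common filter, scaling and spread, and without replicate 3 of basket-less pores (0.12, adjusted p = 0.0533).

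RPB11, the smaller partner of Rpb3, had the largest spread between background and input. It was at 56.2, 58.6 and 66.9 CPM in input, at 177.2, 203 and 189 CPM in the GFP control and at 114, 112 and 147 CPM in the PrA control. In the pores it fell to 39.6, 40.6 and 42.3 CPM (basket-less), 32.1, 30.5 and 32.0 CPM (all NPCs) and 29.3, 33.4 and 23.5 CPM (basket-containing). Both controls stood above input without overlap, and all pore libraries stood below input. RPB11 was 4.64-fold lower in basket-less pores than in their GFP control (log2 -2.21 ± 0.11, adjusted p = 5.28e-13) and 6.01-fold lower in all NPCs than in that control (-2.59 ± 0.11, adjusted p = 5.30e-14). Against input the same groups were at -0.57 ± 0.11 (adjusted p = 0.000177) and -0.94 ± 0.12 (adjusted p = 5.72e-07), so much of the distance to the control lay in the level of the control itself. RPB11 also had the highest GC content of the 10 coding sequences, 49.9% beside 37.3% to 42.4% for the other 9 and a median of 39.8% over genes tested. Whether GC content has a part in these levels was not tested.

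The stalk mRNAs RPB4 and RPB7 both fell in basket-containing pores, with unequal size. RPB4 was at 46.3, 43.6 and 45.2 CPM there, against 220, 200.5 and 237.6 CPM in the PrA control, and was 4.85-fold lower (log2 -2.28 ± 0.06, adjusted p = 2.49e-21). RPB7 was at 39.5, 45.8 and 39.9 CPM against 106, 99.9 and 81.5 CPM, and was 2.31-fold lower (-1.21 ± 0.07, adjusted p = 4.81e-14, and -1.31 without replicate 3 of the PrA control, its lowest library). In basket-less pores RPB7 was the only member of the pair whose call depended on the setting. RPB4 was lower than in their GFP control (-0.95 ± 0.06, adjusted p = 9.71e-14). RPB7 was at 90.1, 87.6 and 86.0 CPM against 91.4, 89.2 and 95.3 CPM, its libraries overlapped, and it was not called (-0.07 ± 0.07, adjusted p = 0.38), though it was called lower under 5 of the 6 other settings, from -0.17 with no filter (adjusted p = 0.0278) to -0.33 with upper-quartile factors (adjusted p = 0.000129). It was called lower too without replicate 3 of basket-containing pores (-0.17, adjusted p = 0.0286).

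RPB9, the peripheral subunit, fell as well. Its libraries were at 32.7, 36.1 and 35.8 CPM in the PrA control and at 7.49, 7.55 and 9.98 CPM in basket-containing pores, which is 4.18-fold lower (log2 -2.06 ± 0.10, adjusted p = 5.38e-16). Basket-less pores, at 21.7, 22.7 and 24.5 CPM, were below the GFP control at 38.7, 41.2 and 37.4 CPM (-0.76 ± 0.09, adjusted p = 1.36e-08). Neither pair of groups overlapped.

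The subunits shared with RNA polymerases I and III followed the other small subunits. RPO26, the spliced mRNA shown above, was at 182.7, 181.9 and 184.3 CPM in input, at 212, 198 and 194 CPM in the PrA control and at 41.6, 41.8 and 37.6 CPM in basket-containing pores. Its change over the PrA control, log2 -2.32 ± 0.05 (4.99-fold lower, adjusted p = 6.94e-24), was the most negative of the 10. The median change of the 277 genes with exactly 2 coding exons in that comparison was -1.29, below the median of all genes at -0.07. Genes under 500 bases, the length class of RPO26, had a median of -1.38 whether or not they held an intron. The part of the intron was not tested. RPB8 was 4.24-fold lower (-2.08 ± 0.06, adjusted p = 1.67e-20) and RPB5 3.11-fold lower (-1.64 ± 0.06, adjusted p = 2.90e-19).

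RPB5 differed from its partners in where it was highest. It was at 191, 193 and 209 CPM in input, above the GFP control (137, 142 and 133 CPM) and the PrA control (138, 132 and 134 CPM) without overlap. Basket-less pores held 116, 116 and 121 CPM and basket-containing pores 41.0, 42.3 and 46.6 CPM. For basket-less pores over their GFP control, RPB5 was down by little (-0.22 ± 0.05, adjusted p = 0.000364, and -0.34 with DESeq2 size factors), RPO26 by -0.90 ± 0.04 (adjusted p = 1.27e-15) and RPB8 by -1.22 ± 0.06 (adjusted p = 4.83e-16).

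Against the PrA control, basket-containing pores had 2 of the 10 mRNAs higher and 8 lower, where 43.8% of all genes were higher and 46.5% lower. With 90.3% of genes called in either direction, a call as such says little about the 10, and the split between the 2 large and the 8 small subunits is what the counts describe. The median of the 10 was -1.85, beside -0.07 over all genes. Without replicate 3 of the PrA control all 10 calls were kept, with RPO21 at 1.63, RPB2 at 1.21 and the others from -0.77 (RPB3) to -2.35 (RPO26). Basket-less pores over the GFP control had 3 higher and 6 lower (47.1% and 35.5% of all genes), with a median of -0.49 beside 0.11. With DESeq2 size factors, upper-quartile factors, no filter, only the groups compared or the Wald test, RPB3 was not called and RPB7 was called lower. Those settings therefore gave 2 higher and 7 lower. All NPCs over the GFP control had 2 higher and 7 lower (46.9% and 37.6%), with a median of -0.64 beside 0.11. The latter comparisons share their control libraries. Scaling moved these baselines. Upper-quartile factors shifted the median of all genes by -0.34, -0.27 and -0.29 in the 3 comparisons, and DESeq2 size factors by -0.12 in both over the GFP control. RPO21 and RPB2 stayed higher and 7 of the other 8 stayed on the lower side in all 3 comparisons under each of these scalings, the exception being RPB3. In all NPCs over the GFP control RPB3 was not called (0.00 ± 0.05, adjusted p = 0.944), but it was called lower with DESeq2 size factors (-0.12, adjusted p = 0.0354) and upper-quartile factors (-0.28, adjusted p = 1.69e-05), which makes 8 lower.

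Basket-containing and basket-less pores differed directly in all 10 mRNAs. RPO21 was 1.95-fold higher (log2 0.96 ± 0.05, adjusted p = 2.28e-15) and RPB2 1.70-fold higher (0.77 ± 0.04, adjusted p = 1.87e-15), and the other 8 were lower by -0.51 to -1.47, where 40.3% of all genes were higher and 42.2% lower. No subunit's libraries overlapped between these groups, as was the case for 84.5% of all genes. RPB11 had the smallest change (-0.51 ± 0.13, adjusted p = 0.00114), which was -0.26 (adjusted p = 0.058) without replicate 3 of basket-containing pores.

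When each kind of pore was first set over its own control, which takes account of the matrix as far as the control measures it, 9 of the 10 differed between them (76.1% of all genes did), 2 higher and 7 lower in basket-containing pores (36.6% and 39.5% of all genes). The difference of the log2 changes was 0.71 ± 0.07 for RPO21 (adjusted p = 1.60e-09) and 0.80 ± 0.06 for RPB2 (adjusted p = 1.89e-12). Among the small subunits it ran from -0.86 ± 0.09 for RPB8 (adjusted p = 2.16e-09) to -1.42 ± 0.07 for RPO26 (adjusted p = 8.09e-16). RPB11 was not called (0.10 ± 0.16, adjusted p = 0.575), having fallen against both controls by nearly equal amounts (-2.11 and -2.21). Without replicate 3 of basket-containing pores its difference was 0.35 (adjusted p = 0.0416). Without replicate 3 of the PrA control it was 0.23 (adjusted p = 0.0618). The other 9 kept their calls without that control library, with RPO21 at 0.65, RPB2 at 0.83 and the small subunits from -1.45 (RPO26) to -0.78 (RPB8).

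Basket-less pores and all NPCs, both from the nanobody, were much closer. RPO21 and RPB2 were each 1.15-fold lower in basket-less pores (log2 -0.20 ± 0.05 and -0.20 ± 0.04, adjusted p = 0.00226 and 0.000225). RPB3, RPB4, RPB5, RPB8, RPB11 and RPO26 were higher by 0.16 to 0.38, with RPB8 the highest (0.38 ± 0.06, adjusted p = 2.60e-05). That made 6 higher and 2 lower, where 20.3% and 22.8% of all genes were called, and RPB7 and RPB9 were not called. The calls of RPB3 and RPB11 were lost without replicate 3 of basket-less pores (adjusted p = 0.11 and 0.0597) and without replicate 2 of all NPCs (adjusted p = 0.068 and 0.0616). Set over all NPCs, basket-containing pores had 2 higher and 7 lower (38.7% and 41.7% of all genes), with RPB11 not called.

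The background purifications were themselves not the same as input. In the PrA control 5 of the 10 were higher and 2 lower than in input (37.5% and 41.2% of all genes), and in the GFP control 4 were higher and 2 lower (37.2% and 42.4%). RPB11 led both, at 2.04-fold in the PrA control (log2 1.03 ± 0.10, adjusted p = 3.62e-08) and 3.13-fold in the GFP control (1.65 ± 0.10, adjusted p = 3.52e-11). RPB4 was higher by 0.58 ± 0.06 and 0.55 ± 0.06, RPO21 by 0.65 ± 0.05 and 0.40 ± 0.05, and RPB5 was lower by -0.55 ± 0.05 and -0.53 ± 0.05. The lower call of RPB2 in the GFP control (-0.09 ± 0.04, adjusted p = 0.0417) was lost under 5 of the 6 other settings tried and with 8 of the 18 libraries left out singly. RPO26 in the GFP control (0.09 ± 0.04, adjusted p = 0.0564) was called higher under 5 of the 6 other settings, from 0.10 with DESeq2 size factors to 0.14 with only the groups compared (adjusted p = 0.00609), which makes 5 higher. The lower call of RPB2 in the PrA control (-0.12 ± 0.04, adjusted p = 0.00693) was lost with only the groups compared in the fit (adjusted p = 0.13) and without replicate 1 of that control (adjusted p = 0.064). The controls differed from each other in 3 of the 10, with RPO21 higher in the PrA control (0.25 ± 0.05, adjusted p = 0.000699) and RPB8 (-0.31 ± 0.05, adjusted p = 0.000192) and RPB11 (-0.61 ± 0.09, adjusted p = 0.00017) lower, where 16.1% of all genes were higher and 16.7% lower. Without replicate 3 of the PrA control these 3 were at 0.31, -0.39 and -0.75, all called. RPB7 was then called higher too, over the GFP control (0.17, adjusted p = 0.0121, against 0.07, adjusted p = 0.484, with it) and over input (0.21, adjusted p = 0.00096, against 0.10, adjusted p = 0.163). The calls of the other subunits in the PrA control over input were kept without it, with RPB11 at 0.90 and RPB8 moving from 0.22 to 0.14.

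Set directly over input, the direction of the large subunits held in every pore group. RPO21 was higher by 2.34 ± 0.05 in basket-containing pores, 1.58 ± 0.05 in all NPCs and 1.38 ± 0.05 in basket-less pores (adjusted p = 1.52e-23, 1.39e-19 and 3.59e-18). Basket-containing pores over input again had 2 higher and 8 lower (43.9% and 45.5% of all genes). All NPCs had 2 higher and 7 lower (44.6% and 37.1%), of which RPB7 (-0.18 ± 0.07, adjusted p = 0.024) lost its call without replicate 1 of all NPCs (adjusted p = 0.0815) and without replicate 2 of input (adjusted p = 0.0692), and basket-less pores had 3 higher and 6 lower (44% and 36.1%). RPB2 and RPB3 in basket-less pores were no longer called with upper-quartile scaling (0.03 and -0.03), nor RPB3 with DESeq2 size factors (0.11).

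Per kilobase of coding sequence, RPO21 went from rank 10 of the subunit mRNAs in input to rank 1 in basket-containing pores, and RPB2 from 8 to 2. The order did not turn over as a whole, since RPB3 kept rank 7 and RPB9 went from 9 to 10. In the other pore groups RPO21 rose in rank as well, and RPB2 less or not at all. In input, RPO21 was the lowest of the 10, at 71.5 ± 3.3 CPM per kilobase (SD, n = 3), and RPO26 the highest, at 391 ± 3. In basket-containing pores RPO21 was the highest, at 363 ± 7, with RPB2 next at 223 ± 9, and none of the other 8 was above the 86.2 ± 5.0 of RPO26. RPB9 was lowest there, at 22.6 ± 3.8. In basket-less pores RPO26 stayed the highest, at 223 ± 6, with RPO21 next at 186 ± 6, and RPB2 kept rank 8 as in input. In all NPCs RPO21 was the highest, at 214 ± 1, with RPO26 next at 190 ± 4. The ratio of the highest to the lowest level was 5.47 in input, 3.67 in all NPCs, 3.58 in basket-less pores and 16.0 in basket-containing pores, so the subunit mRNAs were most alike in level in the pores caught by the nanobody. In the GFP control RPB11 was highest, at 522 ± 35, and RPO21 again lowest, at 94.3 ± 6.1.

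**Figure D2:**
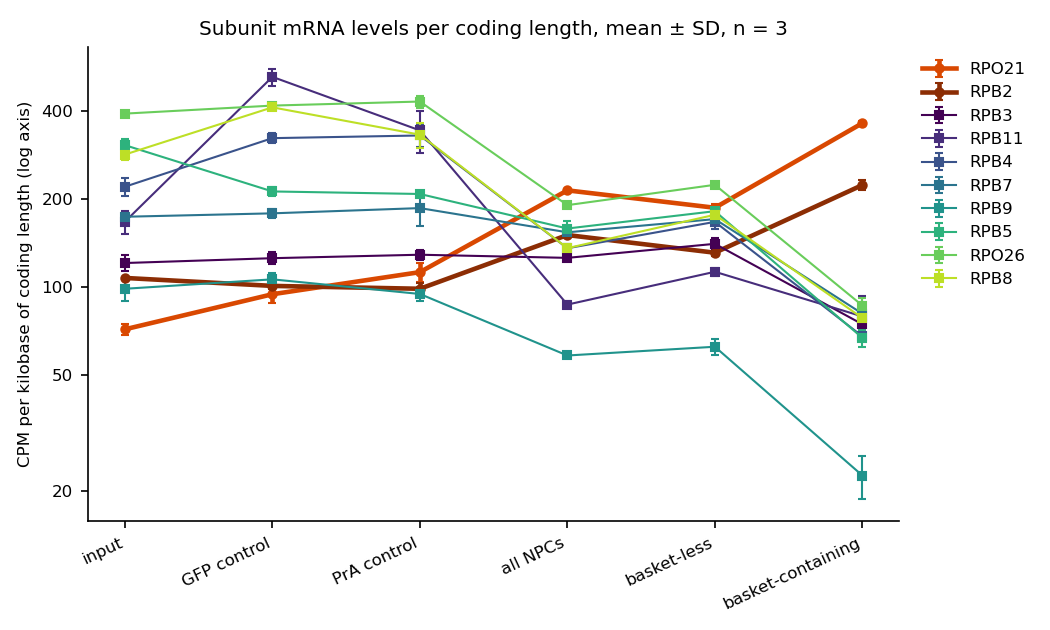
Level of each subunit mRNA per kilobase of coding length in the 6 groups, in CPM per kilobase on a log axis, as mean ± SD of 3 libraries, with lines joining the values of 1 gene and no order implied between groups. RPO21 goes from the lowest level in input (71.5) to the highest in basket-containing pores (363).

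Long mRNAs as a class were higher in the pore groups, and the subunits were set against genes of their own length. Of the 491 genes tested with a coding length of 3000 bases or more, 86.4% were called higher in basket-containing pores over the PrA control, with a median of 1.35, while the 861 genes under 500 bases had a median of -1.38 and the 1441 genes from 500 to under 1000 bases one of -0.75. Within the longest class RPO21 (1.69) stood at percentile 61.9 and RPB2 (1.18) at percentile 43.4, so neither was far from the middle. RPB3 was at percentile 48.7 of its class. RPB4 was the farthest out in its class, at percentile 8.40 of genes from 500 to under 1000 bases. In all, 1 of the 10 was above and 9 were below the median of their class. The Spearman correlation of the log2 change with coding length over the 5773 genes with a length was 0.57. It is a description across genes of the same libraries, which are not independent.

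For basket-less pores over their GFP control, 3 of the 10 were above and 7 below the median of their length class. RPB11 was the lowest in rank there, at percentile 4.88 of genes under 500 bases, and RPB3 the highest, at percentile 71.6 of its class. In the longest class, RPO21 was at percentile 62.5 and RPB2 at percentile 25.7, its change of 0.38 being below the class median of 0.81. For all NPCs over the same control they were at percentiles 56.0 and 23.8. Between basket-containing and basket-less pores, RPO21 was at percentile 70.1 and RPB2 at percentile 56.6 of the longest class, and the other 8 were all below their class median, from percentile 14.6 (RPB9) to percentile 49.8 (RPB11). The part of length in these changes was not tested beyond these ranks.

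**Figure D3:**
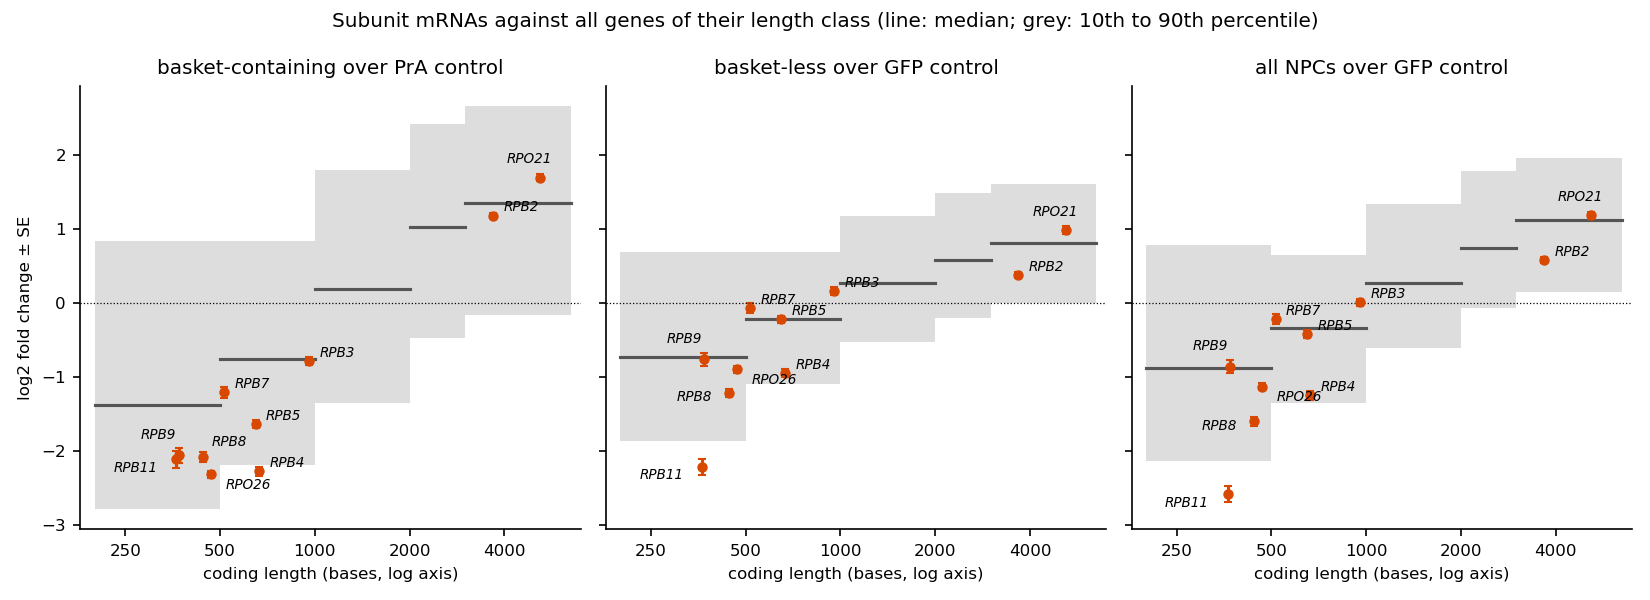
Log2 fold change ± SE of the 10 subunit mRNAs (orange points) against coding length on a log axis, in pores over the control of the same matrix. Grey boxes span the 10th to 90th percentile of all genes tested in each length class and dark lines the class medians, and the outer classes include genes beyond the edges drawn. RPO21 and RPB2 lie inside the grey range of the longest class in each panel. RPB11 lies below the grey range in both comparisons over the GFP control, and RPB4 just below it over the PrA control.

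The largest subunits of the other RNA polymerases did not all share the behaviour of RPO21 and RPB2. RPA135, RPO31 and RET1 were chosen after their values were seen, as the counterparts of RPB2 and RPO21, and RPA190 by the rule for named genes. In basket-containing over basket-less pores, the RNA polymerase I pair RPA190 and RPA135 were lower (log2 -1.37 ± 0.04 and -1.28 ± 0.04, adjusted p = 2.03e-20 and 4.36e-19), at percentiles 1.83 and 2.24 of genes of 3000 bases or more. Of the RNA polymerase III pair, RET1 was higher (0.75 ± 0.04, adjusted p = 4.67e-15) and RPO31 was not called (0.00 ± 0.05, adjusted p = 0.951), though RPO31 was called higher with DESeq2 size factors (0.13, adjusted p = 0.0107). Over the PrA control, basket-containing pores held RPA190 at -0.45, RPA135 at -1.42, RPO31 at -0.06 and RET1 at 1.88. Over the GFP control, basket-less pores held them at 1.00, -0.19, 0.25 and 1.19. The difference between these genes and RPO21 or RPB2 was not tested.

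The other subunits of the related polymerases were counted in basket-containing pores set over basket-less ones, where 40.3% of all genes were higher and 42.2% lower. Short genes were lower more often, at 56.8% of genes under 500 bases and 61.3% of those from 500 to under 1000 bases, and most of these subunits are short. Of 7 subunits found only in RNA polymerase I, 6 were called lower and none higher, with a median of -1.37, led by RPA34 (-2.98 ± 0.07) and RPA49 (-1.88 ± 0.05), which together form a subcomplex of that enzyme. Of 10 found only in RNA polymerase III, 7 were lower and 2 higher, with RPC31 at -3.70 ± 0.07, RPC34 at -2.15 ± 0.09 and RPC53 at -1.36 ± 0.07. RPC40 (-2.23 ± 0.06) and RPC19 (-1.82 ± 0.08), which in polymerases I and III take the place of Rpb3 and Rpb11, were both lower. The remaining shared subunits RPB10 (-1.41 ± 0.16) and RPC10 (-0.94 ± 0.13) were lower as well. Each of these named values passed the threshold.

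**Figure D4:**
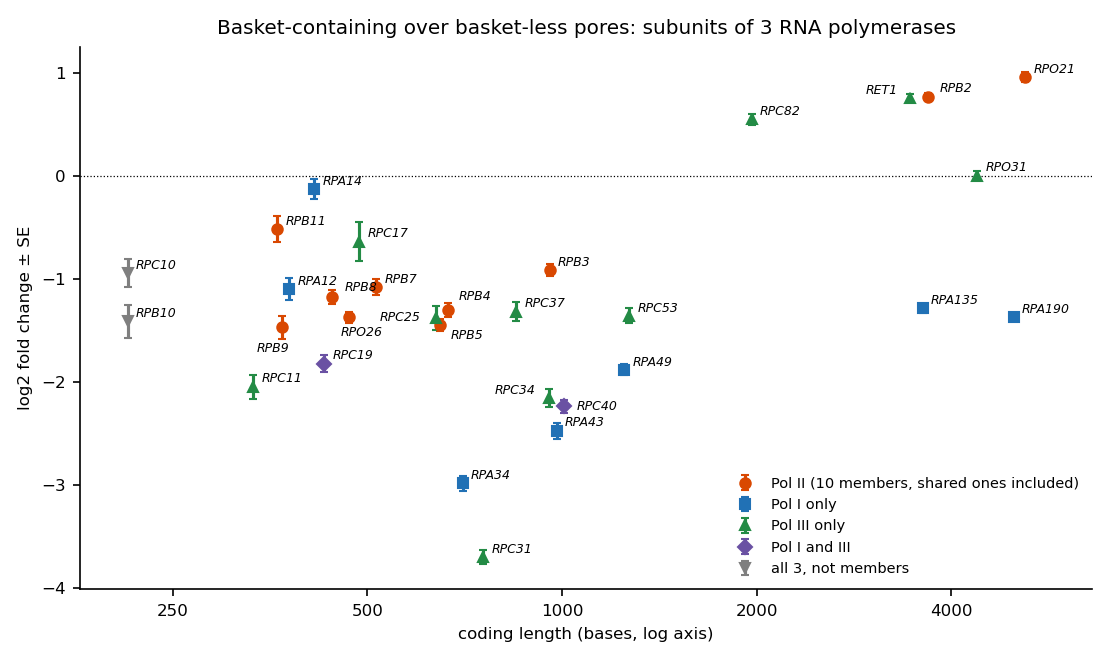
Log2 fold change ± SE in basket-containing over basket-less pores for the subunits of RNA polymerases I, II and III, against coding length on a log axis. Each list has 1 symbol shape: the 10 members with their shared subunits, polymerase I only, polymerase III only, shared by I and III, and the remaining shared subunits. RPO21 (0.96), RPB2 (0.77), RET1 (0.75) and RPC82 (0.55) lie above 0, while RPA190 (-1.37) and RPA135 (-1.28) lie below it at similar lengths to RPO21 and RPB2.

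Genes that assemble and serve RNA polymerase II were split. Of 7 assembly and import factors, 6 were lower in the same comparison and none was higher (median -1.38, beside -0.04 over all genes; 1 was called higher with DESeq2 size factors). They were led by the GTPases NPA3 (-1.94 ± 0.06), GPN2 (-2.42 ± 0.08) and GPN3 (-1.38 ± 0.09), which act in nuclear import and assembly of the enzyme. Of 25 Mediator subunits, 12 were higher and 6 lower (3 lower with DESeq2 size factors), with a median of 0.15. The 3 named by the rule all belong to its kinase module, SSN2 (1.33 ± 0.05), SRB8 (1.21 ± 0.06) and SSN3 (1.06 ± 0.06), and were all higher. The rule took the smallest adjusted p in this same comparison, so it favours large changes. Of all genes of 3000 bases or more, 79.8% were called higher here, with a median of 0.69. The part of length in the Mediator values was not tested.

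The next counts are from the same comparison, in which 40.3% of all genes were higher and 42.2% lower. Of 32 general transcription factors, 8 were higher and 18 lower, with a median of -0.26. TAF1 (0.91 ± 0.04), a subunit of TFIID, was higher. Another TFIID subunit, TAF10 (-1.51 ± 0.07), and the TFIIF subunit TFG2 (-1.63 ± 0.07) were lower. Of 13 elongation factors, 3 were higher and 5 lower (5 higher with DESeq2 size factors and 8 lower with upper-quartile factors), with a median of -0.05. SPT5 (0.86 ± 0.04) and PAF1 (0.56 ± 0.04) were higher and LEO1 (-1.62 ± 0.06), like PAF1 a subunit of the Paf1 complex, was lower. Of 9 kinases, phosphatases and related enzymes that act on the repeat tail of Rpo21, 5 were higher and 3 lower, with a median of 0.21. CTK1 (1.00 ± 0.07) and SGV1 (0.55 ± 0.05), both kinases of the tail, were higher, and the prolyl isomerase ESS1 (-0.42 ± 0.07) was lower. All values named in these 2 paragraphs passed the threshold.

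Across the 6 group means, RPO21 and RPB2 had a Pearson correlation of 0.926 in log2 CPM. The 28 pairs among the other 8 had correlations from 0.424 to 0.986, and the 16 pairs of a large with a small subunit had correlations from -0.996 to -0.612. These are descriptions over 6 points that share their libraries. By Euclidean distance between centred log2 CPM profiles over the 18 libraries, among 5097 genes with a mean of at least 20 CPM, the nearest to RPO21 were MSB2 (0.30), HAA1 (0.31), JEN1 (0.37), GIS4 (0.37) and MYO3 (0.38). The nearest to RPB2 were DOA1 (0.29), NSP1 (0.36), BUD7 (0.36), YLR419W (0.38) and QDR1 (0.38). The nearest to the mean profile of the other 8 were RHO1 (0.29), PAN6 (0.32), NIF3 (0.33), CDC42 (0.33) and HTZ1 (0.34). Coding lengths of the first 10 of these genes ran from 1692 to 4308 bases and those of the last 5 from 405 to 930 bases.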

How the data were processed

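Per the submitters' processing notes, reads were aligned with STAR to the R64 build, counted with featureCounts and analysed with DESeq2; settings and strandedness are not stated in any source used here. The deposited values are raw counts, 1 table per library over 7127 features. Library totals of 10592840 to 16620246 limit the precision of the lowest genes. Groups come from the sample titles. Members and gene lists were chosen with earlier results of these data known. Counts were fitted with edgeR 4.0.16 in R 4.3.3 (filterByExpr, TMM, robust quasi-likelihood, two-sided) over the 18 libraries. This left 6429 genes, over which p-values were adjusted by Benjamini-Hochberg. The p-values measure the spread between libraries, which may be technical. SE is the size of the log2 change divided by the root of F. On simulated counts of basket-containing pores over the PrA control, in 6429 genes with 200 changed, 90% of log2 changes of 0.5 and 99% of 1 were called. In the real comparison 90.3% of genes were called, far more than were changed in the simulation. These rates therefore cannot be carried over to it. Coding lengths, introns and sequences come from RefSeq R64, which gave a length for 89.8% of genes tested. Per list, the 3 genes with the smallest adjusted p between basket-containing and basket-less pores were named, and per profile the 5 nearest genes. Alternatives were DESeq2 size factors, upper-quartile factors, no filter, a replicate block, only the groups compared, the Wald test of DESeq2 1.42.0 and leaving out each library.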

Additional observations from a re-analysis of the deposited data

Results flagged for a closer look

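The change over the control of the same matrix differed between basket-containing and basket-less pores in 9 of the 10 mRNAs, as tested by the difference of the log2 changes in edgeR's quasi-likelihood fit. It was higher in basket-containing pores for RPO21 (0.71) and RPB2 (0.80). It was lower for RPB3 (-0.95), RPB4 (-1.33), RPB7 (-1.14), RPB9 (-1.30), RPB5 (-1.41), RPO26 (-1.42) and RPB8 (-0.86). Of all genes, 76.1% were called in this comparison. The matrices differ between these groups, and the part of the matrix beyond what the controls measure was not tested.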

How the results depend on the processing

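Of the 130 log2 changes of a subunit mRNA (10 genes in 13 comparisons), taken over all alternatives, 3043 values kept direction and call, 31 lost the call with the same direction, 24 gained one with the same direction and 22 changed sign. Of the 22, 5 gained a call, 2 lost one and 15 were not called either way. The counts of 2 higher and 8 lower in basket-containing pores over the PrA control were the same with each library left out. Basket-less pores over the GFP control had 2 higher and 7 lower, against 3 and 6, under the other settings except the replicate block. With libraries left out, the higher calls there ranged from 2 to 3 and the lower calls from 6 to 7. Subunits called higher in basket-less pores over input were 1 with upper-quartile factors, against 3. Subunits called lower in the PrA control over input were 1 with only the groups compared, against 2, and ranged from 1 to 2 with libraries left out. Those called lower in the GFP control over input were 1 with DESeq2 size factors, upper-quartile factors, no filter, only the groups compared or the DESeq2 Wald test, against 2, and ranged from 1 to 2 with libraries left out. Subunits higher in the PrA control over the GFP control ranged from 1 to 2 with libraries left out. The causes were not tested.

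The 5 sign changes that became calls were RPB3 lower in all NPCs, over the GFP control under 4 settings (adjusted p from 1.69e-05 to 0.0431) and over input with upper-quartile factors (adjusted p = 0.000617). With upper-quartile factors, RPB3 in basket-less pores went to -0.11 over their GFP control and to -0.033 over input. RPB3 in all NPCs over the GFP control, 0.00 as reported, went to -0.12 with DESeq2 size factors, -0.28 with upper-quartile factors, -0.095 with no filter, -0.13 with only the groups compared and -0.12 with the Wald test, and ranged from -0.11 to 0.039 with libraries left out. Over input it went to -0.052, -0.21, -0.015, -0.022 and -0.052 in the same settings, and ranged from -0.031 to 0.10. With libraries left out, RPB11 ranged from -0.0094 to 0.35 in the difference between pores over their own controls and from -0.25 to 0.12 in basket-containing pores over all NPCs. RPB9 ranged from -0.12 to 0.014 in the PrA control over input. In the PrA over the GFP control, RPB2 ranged from -0.065 to 0.0022, RPB4 from -0.029 to 0.089 and RPB7 from -0.013 to 0.17.

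Replicate numbers did not pair the libraries: 3 of 45 correlations between equally numbered libraries were over 0.1 (range -0.161 to 0.280), and the own number correlated best in 32 of 90 cases. With the replicate block, 2815 genes were higher and 2992 lower in basket-containing pores over the PrA control, against 2813 and 2991. Depth limits RPB9 most, at 7.49 to 9.98 CPM in basket-containing pores.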
